A study of Mus musculus with 12 samples.

Results

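Immediate early genes are transcribed within minutes of a stimulus, without new protein synthesis, from promoters that already hold factors such as SRF, CREB and the Ets-family partners of SRF. Growth factor signals through the ERK kinases, stress signals through the JNK and p38 kinases, and changes in the actin cytoskeleton all reach them. Their messengers are short-lived, so their level follows recent signalling. The 10 genes described here cover the main roles of this response. Fos, Fosb, Jun, Junb and Atf3 encode leucine zipper proteins of the AP-1 and ATF family, and Egr1 encodes a zinc finger transcription factor. Ier2 encodes a nuclear response protein and Ier3 a regulator of cell survival. Dusp1 encodes a phosphatase that switches off MAP kinases, and Zfp36 encodes tristetraprolin, which binds and destabilises AU-rich messengers. Probe sets were taken where the platform annotation listed 1 of these names as their single gene symbol. This gave 11 probe sets for all 10 genes, out of 20380 probe sets for 12393 genes. Jun had 2 probe sets and the other genes 1 each.

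The RNA came from fetal mouse kidneys of strain C57BL/6, dissected at 10.5 dpc (days post coitum) and grown in culture for 3 to 4 days. There were 6 wildtype samples and 6 beta-catenin activated samples, the latter labelled as kidneys with tumors. The mothers of both groups were given tamoxifen by intraperitoneal injection at 10.5 dpc, 2 mg per 40 g of body weight, and the culture medium of both was supplemented with selenium (5 ng/mL), insulin (5 µg/mL) and transferrin (5 µg/mL). The allele, the Cre driver and the cells in which beta-catenin was activated are not given in the sources used here, and nothing says that the samples came from separate animals. P-values therefore measure the spread between these samples, which may be technical. Sample titles carry numbers that fall into 2 separate runs, here called the lower and the higher run, each with 3 wildtype arrays (1 to 3 in the lower run, 4 to 6 in the higher) and 3 activated arrays numbered in the same way. What the runs stand for, and which kidneys had 3 and which 4 days of culture, is not given in the labels.

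Levels are log2(intensity + 16) after quantile normalisation, and differences are on the same scale, on which changes of dim genes are understated. A gene was called at an adjusted p under 0.05 in limma, with Benjamini-Hochberg adjustment over all 12393 genes. The brightest of 27 bacterial control probe sets, which match no mouse transcript, read 5.45. The Wnt target Apcdd1, named as a check of the activation label, was 1.99 higher in activated kidneys (SE 0.27, limma adjusted p = 0.0143). Apcdd1 was chosen with earlier results of these data known, so it cannot bear out the label by itself. Its difference was 2.90 in the lower run (adjusted p = 0.00021) and 1.08 among higher-run arrays (adjusted p = 0.00689), a contrast that itself passed (-1.82, adjusted p = 0.00194). Axin2, a further Wnt target, was 1.12 higher (adjusted p = 0.476), and 1.78 higher in the lower run alone (adjusted p = 0.00379). In activated kidneys 6 of 9 Wnt targets were called higher in the lower run, 1 of 9 in the higher run and 1 of 9 over all arrays. Of the markers of other cell types, 5 of 8 macrophage genes were higher (6.94% of all genes) and 3 of 5 erythroid genes lower (4.19%) in the higher run. The Affymetrix control probe sets near the 5' and 3' ends of Gapdh and beta-actin gave a 5' to 3' ratio (log2, mean of both genes), a measure of RNA and labelling quality. It was -0.26 in activated 2, -1.05 in activated 6 and -1.43 in wildtype 2. In the other 9 arrays it lay between -2.41 and -1.86. Y-linked genes were near the control signal in wildtype 2, wildtype 5 and activated 6, at 4.24 to 4.48 against at least 7.38 elsewhere. Xist, which is transcribed from the inactive X chromosome, was at 11.52 to 11.90 in these 3 arrays, at 10.90 in activated 4, where the Y-linked mean was 7.54, and at most 6.08 in the other 8. These arrays were kept, and values without them are given where a result rests on them.

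The promoter letters of 4 of the 5 genes called higher in the higher run are shown first. RefSeq entries of build GRCm38.p6 were matched for 8 of the 10 genes. Egr1, the remaining called gene, and Ier2 had no entry and were not searched. Each line holds the 250 bases before the transcription start, 5′ to 3′ on the strand of the gene. Capitals mark matches, on either strand, to a CArG box (the SRF motif), to the cAMP response element TGACGTCA or its TGACG core, to the AP-1 site TGANTCA or to the Egr site GCGNGGGCG. The core is contained in the full cAMP response element, so the latter is counted in both.
Fos, chr12:85473640-85473889, plus strand: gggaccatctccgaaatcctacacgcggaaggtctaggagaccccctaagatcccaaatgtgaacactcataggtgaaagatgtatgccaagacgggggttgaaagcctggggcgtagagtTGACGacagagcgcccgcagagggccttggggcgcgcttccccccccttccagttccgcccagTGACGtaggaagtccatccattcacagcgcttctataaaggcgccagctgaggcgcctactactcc
Ier3, chr17:35821463-35821712, plus strand: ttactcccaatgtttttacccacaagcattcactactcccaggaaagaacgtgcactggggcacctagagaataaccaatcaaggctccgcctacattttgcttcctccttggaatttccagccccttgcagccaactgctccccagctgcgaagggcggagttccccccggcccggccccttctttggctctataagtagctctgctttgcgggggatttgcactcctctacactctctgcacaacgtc
Dusp1, chr17:26508473-26508722, minus strand: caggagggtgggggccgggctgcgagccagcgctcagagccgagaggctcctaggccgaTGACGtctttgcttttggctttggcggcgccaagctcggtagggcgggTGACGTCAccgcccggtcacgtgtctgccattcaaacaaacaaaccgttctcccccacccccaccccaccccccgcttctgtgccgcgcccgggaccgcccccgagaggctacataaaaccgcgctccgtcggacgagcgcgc
Zfp36, chr7:28379229-28379478, minus strand: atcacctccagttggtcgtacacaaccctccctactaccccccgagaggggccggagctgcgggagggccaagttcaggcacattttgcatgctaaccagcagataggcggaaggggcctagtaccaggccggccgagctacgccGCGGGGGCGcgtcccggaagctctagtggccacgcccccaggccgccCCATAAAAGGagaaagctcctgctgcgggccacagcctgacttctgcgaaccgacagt
In this window Fos holds the TGACG core at -129 to -125 and at -66 to -62, counted from the start. Dusp1 holds the full TGACGTCA at -143 to -136 and a further core at -191 to -187. Zfp36 holds a CArG box at -58 to -49 and an Egr site at -105 to -97, and the Ier3 window holds none of the 5 motifs. Of all 32851 windows of this length in the table, 17.8% hold the core, 1.55% the full element, 1.47% a CArG box, 4.7% an Egr site and 6.75% an AP-1 site. Of the genes not printed, Fosb, Junb and Atf3 hold 1 core each, Fosb also an Egr site, and Jun none of the motifs. These matches describe letters and show no binding. Bases outside the 250 were not searched, so a motif absent from a window may still lie further from the start.

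None of the 10 genes passed the test between the genotypes, and 5 of them passed between the runs. When run was included in the model, 0 of the 10 genes were called between activated and wildtype kidneys, where 0.105% of all genes were called. At an unadjusted p under 0.05 there was 1, Fos, against 8.79% of all genes. With genotype as a term, 5 of the 10 genes were higher in the higher run and 0 were lower, where 6.94% of all genes were called higher and 4.19% lower. With arrays centred on their medians in place of quantile normalisation, 73.1% of all calls were higher-run calls, against 62.4% here. At an unadjusted p under 0.05 there were 8 of the 10, against 24% of all genes. Within wildtype 4 of the 10 were called higher (3.31% of all genes) and within activated kidneys 2 (1.98%). In the same 5 genes, Fos, Egr1, Ier3, Dusp1 and Zfp36, every array of the higher run lay above every array of the lower run, which 4.24% of all genes did. The remaining 5 genes did not pass. Jun, Junb and Atf3 had positive differences of 0.55, 0.99 and 0.43. The intervals of Ier2 (0.10, -0.48 to 0.69) and Fosb (0.12, -0.28 to 0.52) covered both signs. Fosb was not above the bacterial control on any array, so its sign is not read as a direction.

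**Figure D1:**
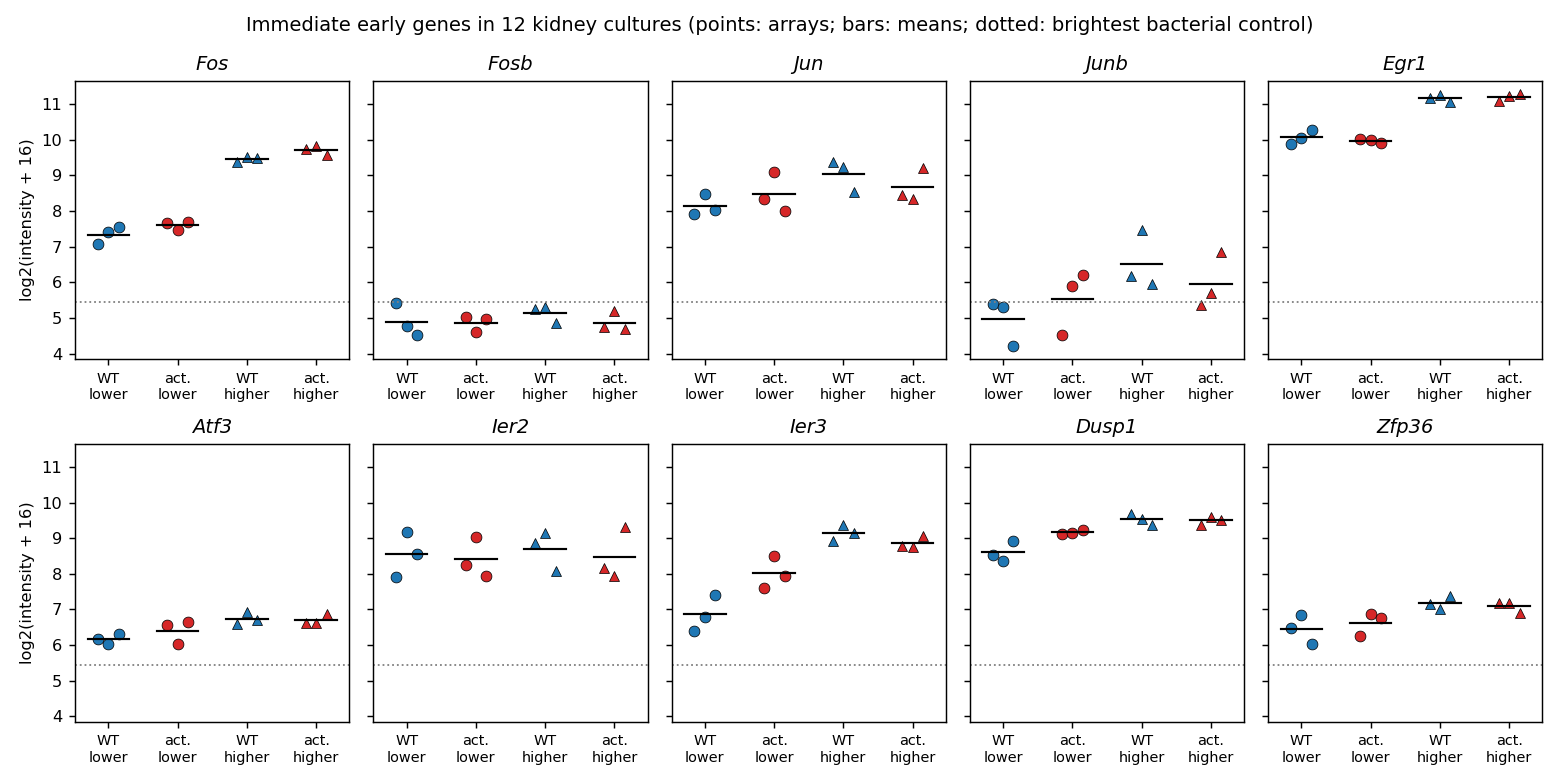
Level of each of the 10 genes, as log2(intensity + 16) after quantile normalisation, in wildtype (WT, blue) and activated (act., red) kidneys of the lower run (circles) and the higher run (triangles). Each point is 1 array, each bar the mean of 3 arrays, and the dotted line the brightest bacterial control at 5.45; Fos lies at 7.08 to 7.71 on the lower-run arrays and at 9.37 to 9.84 on the others.

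Fos, whose product pairs with Jun proteins to form AP-1, showed the widest separation of the runs. In the lower run it was at 7.08, 7.40 and 7.55 in wildtype and at 7.68, 7.46 and 7.71 in activated kidneys. In the higher run it was at 9.37, 9.52 and 9.50 in wildtype and at 9.75, 9.84 and 9.59 in activated kidneys. All higher-run arrays were thus high and all lower-run arrays low, with a gap between them far wider than the spread within either. As deposited, the intensities were 116 to 181 for lower-run arrays and 659 to 915 for higher-run arrays. The difference was 2.12 (SE 0.10, limma adjusted p = 8.33e-09), a fold of 4.33. It was nearly the same in each genotype, at 2.12 in wildtype (SE 0.15, adjusted p = 0.000202) and 2.11 in activated kidneys (SE 0.15, adjusted p = 0.000325).

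Egr1, the zinc finger factor, showed the same step, with a spread within groups of 0.13 (SD) beside 0.16 for Fos. Wildtype kidneys were at 9.87, 10.06 and 10.28 in the lower run and at 11.17, 11.27 and 11.06 in the higher run. Activated kidneys were at 10.02, 9.999 and 9.91 and at 11.09, 11.22 and 11.29 in the same order of runs. The genotypes overlapped within the lower and within the higher run, and the runs did not overlap. Egr1 was 1.16 higher in the higher run (SE 0.08, limma adjusted p = 1.76e-07), a fold of 2.24. The difference was 1.10 in wildtype (adjusted p = 0.00151) and 1.22 in activated kidneys (adjusted p = 0.000585).

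Ier3 was higher in the higher run as well, with the 4 groups spread more widely. Lower-run wildtype kidneys were at 6.39, 6.80 and 7.41, and lower-run activated kidneys at 7.61, 8.50 and 7.94. In the higher run wildtype kidneys were at 8.93, 9.37 and 9.14 and activated kidneys at 8.77, 8.75 and 9.05. The lower-run wildtype arrays were therefore the lowest of the 12, the lower-run activated arrays intermediate, and the genotypes overlapped in the higher run. Over both genotypes Ier3 differed between the runs by 1.56 (SE 0.26, limma adjusted p = 0.000897), a fold of 2.95. In wildtype it differed by 2.28 (SE 0.25, adjusted p = 0.00162), and the 0.84 seen in activated kidneys did not pass (SE 0.23, adjusted p = 0.11).

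Dusp1, the MAP kinase phosphatase, showed a smaller step of the same shape. Its lower-run levels were 8.54, 8.35 and 8.93 in wildtype and 9.13, 9.14 and 9.22 in activated kidneys. Its higher-run levels were 9.68, 9.54 and 9.36 in wildtype and 9.37, 9.60 and 9.52 in activated kidneys. Here too the lower-run wildtype arrays were the lowest, and the lowest higher-run array lay just above the highest lower-run array. The run difference was 0.63 (SE 0.13, limma adjusted p = 0.00458). It was 0.92 in wildtype (adjusted p = 0.0144), a call lost without wildtype 4 (0.84, adjusted p = 0.0796) or wildtype 5 (0.91, adjusted p = 0.0619), and the 0.33 in activated kidneys did not pass (adjusted p = 0.278).

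Zfp36, which limits the life of AU-rich messengers, had the smallest difference of the called genes. It was at 6.49, 6.85 and 6.03 in lower-run wildtype and at 6.26, 6.87 and 6.76 in lower-run activated kidneys. In the higher run it was at 7.16, 7.02 and 7.38 in wildtype and at 7.18, 7.18 and 6.90 in activated kidneys. The runs were separated only by the distance between 6.87 and 6.90. The difference of 0.59 (SE 0.17, limma adjusted p = 0.0355) depended on which arrays were used. It failed the threshold when any of 8 single arrays was left out (wildtype 1, 3, 4, 5 or 6, activated 1, 4 or 5), with adjusted p between 0.059 and 0.0873.

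**Figure D2:**
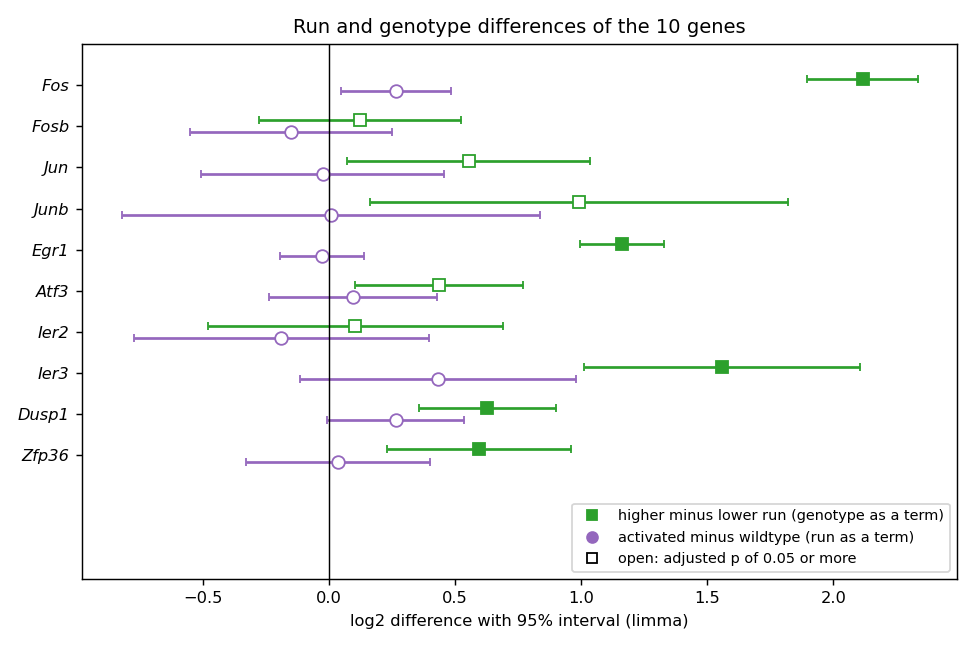
Log2 differences of the 10 genes between the runs (green squares, higher minus lower, genotype as a term) and between the genotypes (purple circles, activated minus wildtype, run as a term), with 95% intervals from limma over 12 arrays. Filled symbols passed an adjusted p of 0.05: 5 run differences did, from 0.59 for Zfp36 to 2.12 for Fos, and 0 genotype differences.

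The other members of the AP-1 and ATF group separated the runs less. Atf3, a stress-induced repressor, was at 6.17, 6.03 and 6.32 in lower-run wildtype and 6.56, 6.02 and 6.64 in lower-run activated kidneys, and between 6.60 and 6.93 in all higher-run arrays. The runs overlapped by a narrow margin and the difference of 0.43 did not pass (SE 0.16, limma adjusted p = 0.0914). Junb was at 4.21 to 6.21 on lower-run and at 5.37 to 7.46 on higher-run arrays, and it exceeded the bacterial control in 2 and 5 of 6 arrays respectively. Its difference was 0.99 (SE 0.39, adjusted p = 0.124), with a spread within groups of 0.79 (SD) that was the widest of the 10 genes; the median over all genes was 0.29. Fosb lay between 4.51 and 5.42 and was not above the bacterial control on any of the 12 arrays, so no difference could be measured.

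Jun, the partner of Fos, gave different answers from its 2 probe sets. The brighter, which stood for the gene in the fits, was at 7.91, 8.48 and 8.02 in lower-run wildtype, 8.33, 9.08 and 8.003 in lower-run activated, 9.37, 9.23 and 8.55 in higher-run wildtype and 8.45, 8.34 and 9.21 in higher-run activated kidneys. Activated 2 and wildtype 2, both with a raised 5' to 3' ratio, were the highest arrays of their lower-run groups, and the runs overlapped. With this probe set the run difference of 0.55 did not pass (SE 0.23, limma adjusted p = 0.141). The other probe set was at 7.75 to 8.46 on lower-run arrays and at 8.61 to 9.06 on higher-run arrays, without overlap. When every probe set was tested alone, over 20380 of them, it differed by 0.73 (SE 0.12, adjusted p = 0.0016). By this probe set, or by the mean of both (0.64, adjusted p = 0.0108), Jun too was higher in the higher run.

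Ier2 did not separate the runs. It was at 7.92, 9.18 and 8.54 in lower-run wildtype, 8.24, 9.02 and 7.95 in lower-run activated, 8.85, 9.16 and 8.08 in higher-run wildtype and 8.16, 7.93 and 9.30 in higher-run activated kidneys. Its highest 4 arrays were activated 6, wildtype 2, wildtype 5 and activated 2, and these came from both runs and both genotypes. The run difference was 0.10 (95% interval -0.48 to 0.69, limma adjusted p = 0.869). Along the 5' to 3' control ratio, in a model with genotype and run as terms, Ier2 rose by 0.75 per unit of the ratio (SE 0.15, adjusted p = 0.00688). The brighter Jun probe set rose by 0.59 per unit (SE 0.13, adjusted p = 0.0102), and the same slope was -0.09 for the other Jun probe set (SE 0.10, adjusted p = 0.657). This model called 2 of the 10 genes where it called 10.2% of all genes, a share near that background.

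Whether the slopes of Ier2 and Jun passed depended on few arrays. Without activated 2 the Jun slope was 0.56, close to the 0.59 over all arrays, but did not pass (limma adjusted p = 0.19). Fewer of all genes passed in that setting too. Without activated 2, activated 6 and wildtype 2 together neither passed (adjusted p = 0.858 for Jun and 0.85 for Ier2). No gene of the whole set passed there, because the arrays with a high ratio were gone. This setting therefore cannot decide whether the slopes hold. Arrays low in Y-linked signal were among those with a high ratio, and with the Y-linked mean as a further term the slopes were 0.47 for Ier2 (adjusted p = 0.0999) and 0.61 for Jun (adjusted p = 0.0533). The part of RNA quality or sex in these levels was not tested beyond these fits. The run differences of Fos, Egr1, Ier3 and Dusp1 passed with the ratio as a covariate and without the 3 arrays.

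**Figure D3:**
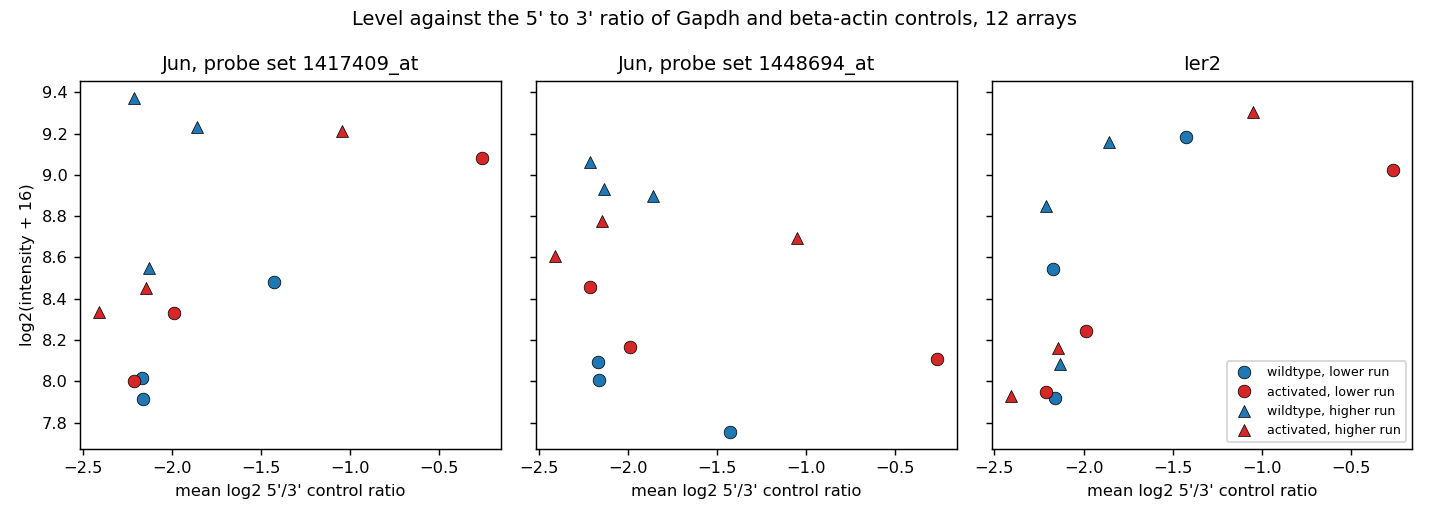
Levels of Jun by its 2 probe sets and of Ier2, as log2(intensity + 16), against the log2 5' to 3' control ratio (mean of Gapdh and beta-actin), 1 point per array; the left panel holds the brighter Jun probe set. In the middle panel every higher-run array (triangles, 8.61 to 9.06) lies above every lower-run array (circles, 7.75 to 8.46), and in the right panel the 4 highest points of Ier2 come from both runs.

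Between the genotypes the estimates for the 10 genes lay between -0.19 and 0.43. With the run as a term, Egr1 differed by -0.03 (95% interval -0.19 to 0.14, limma adjusted p = 0.959) and Zfp36 by 0.03 (-0.33 to 0.40, adjusted p = 0.983). Atf3 differed by 0.10 (-0.24 to 0.43), Ier2 by -0.19 (-0.77 to 0.40) and Jun by -0.02 (-0.51 to 0.46). Ier3 had the largest estimate, 0.43 higher in activated kidneys (-0.11 to 0.98, adjusted p = 0.683), and Dusp1 was 0.26 higher (-0.01 to 0.54, adjusted p = 0.583). Fos was also 0.26 higher, with an interval of 0.05 to 0.48 and an adjusted p of 0.452. The interval of Junb, -0.82 to 0.84, was the widest and leaves room for a change of either sign. In none of the 10 genes did the 6 activated arrays lie apart from the 6 wildtype arrays, as they did in 0.5% of all genes. For Fos, Egr1, Ier3, Dusp1 and Zfp36 this outcome was fixed in advance. Their runs did not overlap and each run holds both genotypes, so the overlap says nothing about activation in these genes. Without the run term 0 of the 10 genes were called (0.0242% of all genes), with 0 at an unadjusted p under 0.05 (6.15% of all genes). In that fit the run difference counts as spread, with an SE of 0.56 for Fos against 0.10 with the term. Genes with a large run difference could therefore hardly pass, and the fit adds nothing to the one with the run term for them.

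Within the lower run, 2 of the genes had no overlap between the genotypes, as had 12.5% of all genes, but neither passed the test. Ier3 was 1.15 higher in activated than in wildtype kidneys (SE 0.32, 95% interval 0.44 to 1.86, limma adjusted p = 0.257), and all 3 activated arrays lay above all 3 wildtype arrays. Dusp1 was 0.56 higher (SE 0.18, interval 0.16 to 0.96, adjusted p = 0.386), again with no overlap. In that run 0 of the 10 genes and 0.597% of all genes were called, with Ier3 and Dusp1 at an unadjusted p under 0.05 (7.07% of all genes). With the spread pooled over all 4 groups Ier3 passed (1.15, SE 0.26, adjusted p = 0.0395), in a model that called more of all genes than the 0.597% here. Among higher-run arrays the genotypes differed by -0.29 in Ier3 and by -0.03 in Dusp1, and 0 of the 10 genes were called (0.00807% of all genes), with 1, Fos, at an unadjusted p under 0.05 (6.36%). The interaction of genotype and run was -1.44 for Ier3 (SE 0.37, adjusted p = 0.158) and -0.59 for Dusp1 (SE 0.21, adjusted p = 0.528). The interaction test called 0 of the 10 genes and 0.331% of all genes, with 2 of the 10 and 6.11% of all genes at an unadjusted p under 0.05, so neither gene was shown to respond differently in the runs.

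The order of the 4 groups was read gene by gene. For Fos the activated higher-run kidneys had the highest mean (9.72), followed by wildtype higher-run (9.46), activated lower-run (7.61) and wildtype lower-run kidneys (7.34), and the gap between the middle pair, which differ in both run and genotype, was far above the spread within groups. Ier3 was highest in wildtype higher-run kidneys (9.15), then in activated higher-run (8.86), activated lower-run (8.02) and wildtype lower-run kidneys (6.87). Dusp1 had nearly equal means in the higher-run groups (9.52 in wildtype and 9.50 in activated) and lower ones in activated (9.16) and wildtype (8.60) kidneys of the lower run.

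Other immediate early genes moved with the same runs. Of 43 such genes listed, 40 were measured, and 21 of them were higher and 0 lower in the higher run (limma, genotype as a term), against 6.94% and 4.19% of all genes. Their median difference was 0.56, beside 0.61 for the 10 genes and -0.02 for all genes. In 18 of the 40, and in 4.24% of all genes, all higher-run arrays lay above all lower-run arrays. The largest differences were those of Ptgs2, the inducible cyclooxygenase, at 2.69 (SE 0.26, adjusted p = 6.78e-06), Socs3, a feedback inhibitor of cytokine receptors, at 2.35 (SE 0.08, adjusted p = 3.49e-10), and Ccn2, a matrix-associated growth factor, at 2.18 (SE 0.19, adjusted p = 2.45e-06). Socs3 rose from a range of 7.77 to 8.06 to one of 10.08 to 10.63. The chemokine gene Cxcl1 (1.89), the stress gene Gadd45b (1.80), Ccn1 (1.58), the clock-linked repressor gene Bhlhe40 (1.48) and Egr2 (1.33) passed as well. The mean of Cxcl1 in the lower run, 4.63, lay under the bacterial control, so the size of its change is uncertain.

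Among the 8 brightest genes of that list, 6 rose. These were Ccn2, Nfkbia (0.51), Btg1 (0.65), Rhob (0.82), Errfi1 (0.75) and Zfp36l2 (0.30); Nfkbia encodes an inhibitor of NF-kappaB and Errfi1 a feedback inhibitor of the EGF receptor. Mcl1, at 0.25, and Zfp36l1, at 0.22, did not pass (adjusted p = 0.0522 and 0.0626). Other well-known early genes had small differences that did not pass. Myc differed by 0.10 (95% interval -0.15 to 0.35), Klf10 by 0.17 (-0.12 to 0.45), Ier5 by 0.15 (-0.20 to 0.50) and Plk2 by 0.04 (-0.21 to 0.28). Of the 40 genes 35 had a positive difference. The lowest was that of Nr4a2, at -0.32, with means of 6.15 in the lower and 5.82 in the higher run, which did not pass. Myc, Klf10, Ier5, Plk2, Nr4a2 and the called genes outside the 8 brightest were picked after their values were seen.

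The rest of the AP-1 and ATF family was also examined. Of 16 measured genes 6 were higher and 0 lower in the higher run, against 6.94% and 4.19% of all genes, with a median difference of 0.35. Jund, usually the steadiest member of the Jun family, rose from a range of 10.32 to 10.65 to one of 11.003 to 11.22 without overlap (0.64, SE 0.08, limma adjusted p = 5.57e-05). Atf4, the effector of the integrated stress response, was 0.39 higher (adjusted p = 0.0115), while Atf5 at 0.43 (adjusted p = 0.0555), Jdp2 at 0.23 and Atf2 at -0.03 did not pass. Batf3 (0.99), Maff (0.64), Atf6 (0.63) and Fosl1 (0.58) were the remaining calls; the lower-run mean of Fosl1, 5.07, lay under the bacterial control.

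The kinases and factors that lead to these genes were read against the same background. Of 15 measured genes of ERK, JNK, p38 and SRF signalling 2 were higher, Elk4 (0.57) and Rps6ka3 (0.33), and 1 was lower, Mapk8 (-0.42), with a median of 0.06, where 6.94% of all genes were called higher and 4.19% lower. Of 8 measured feedback genes of the ERK pathway, among them Dusp6 and the Sprouty genes, 0 were called in limma, with a median of 0.19. At an unadjusted p under 0.05 there were 3 of the 8, against 24% of all genes. Transcript levels of kinases do not report their activity. Between the genotypes, in the fit that includes the run, 1 gene of the 40 passed (0.105% of all genes), with 7 at an unadjusted p under 0.05 (8.79% of all genes). It was Sgk1, a serum- and glucocorticoid-induced kinase gene, which was 0.71 higher in activated kidneys (SE 0.11, adjusted p = 0.0215). In the AP-1 and ATF list 0 of 16 passed and 1 had an unadjusted p under 0.05.

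**Figure D4:**
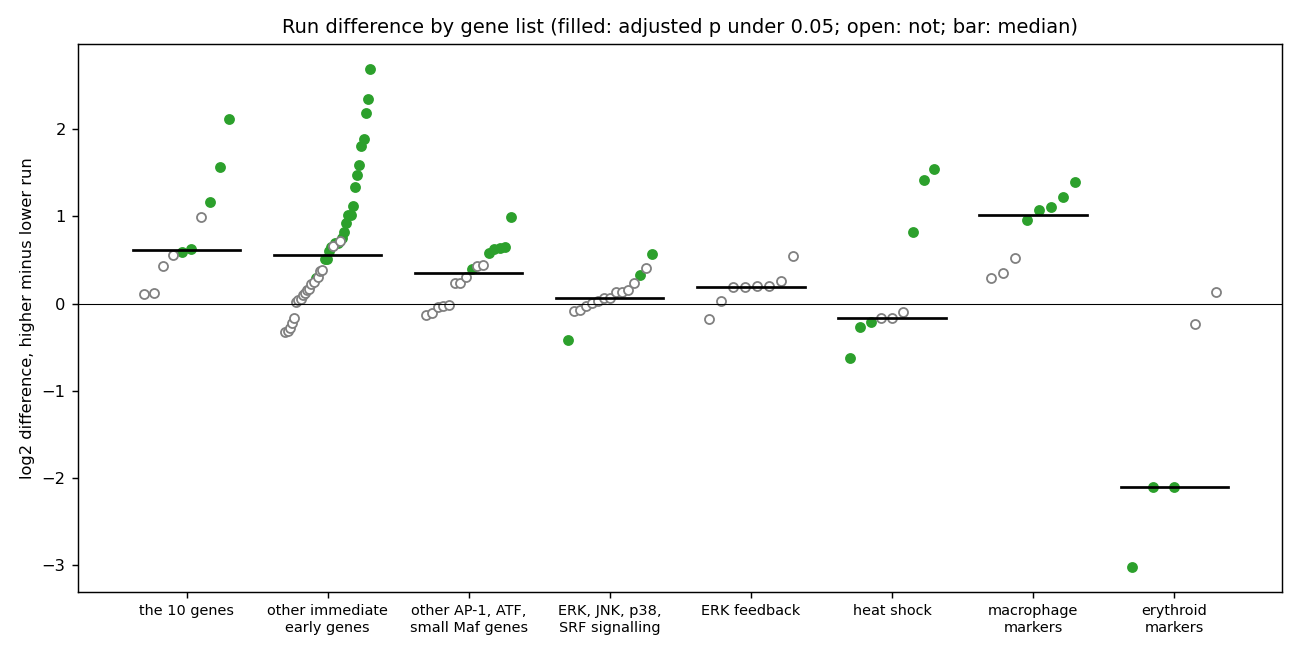
Log2 difference between the higher and the lower run, with genotype as a term, for each measured gene of 8 lists; filled points passed an adjusted p of 0.05 in limma and bars are list medians. The 10 genes and the other immediate early genes have medians of 0.61 and 0.56, against 0.06 for the signalling genes and -2.10 for the erythroid markers.

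Other groups of genes moved with the runs too, and their values stand beside those of the early genes. Over all genes 6.94% were called higher and 4.19% lower, and 24% had an unadjusted p under 0.05 in limma. The 8 macrophage markers had a positive difference each, with a median of 1.02, and 5 passed, among them Mrc1 (1.39, limma adjusted p = 5.18e-05), Tyrobp (1.22), Cd68 (1.11) and Csf1r (1.07). The mean of the 8 ran from 6.34 to 6.82 on lower-run and from 7.17 to 7.56 on higher-run arrays, without overlap, and each of the 8 exceeded the bacterial control on some array. Embryonic globins went the other way, with Hbb-bh1 at -3.02, Hba-x at -2.11 and Hbb-y at -2.10. The higher-run mean of Hbb-bh1, 5.06, lay under the bacterial control, so the size of its change is uncertain. On the arrays, the mean of 5 erythroid genes fell from 7.72 to 8.47 down to 6.20 to 6.72. Heat shock genes were mixed, with 3 higher and 3 lower of 9. Hspa1b, the stress-inducible Hsp70 gene, rose by 1.54 (adjusted p = 5.51e-08), Hspb1 by 1.42 and Hspa1a by 0.82, while Hsph1 (-0.62), Hsp90aa1 (-0.27) and Hspe1 (-0.21) fell; the median of the list was -0.17 although its mean level was higher in the higher run (10.59 against 10.34). The endothelium list had 0 of 8 genes called, with 0 at an unadjusted p under 0.05, and so had the 6 skeletal muscle genes. Of nephron progenitor markers 2 of 9 were higher, Six2 and Cited1. Of 9 ureteric bud markers Krt8 was higher and Lhx1 lower. Higher too were 1 stromal gene of 8, Col3a1, and 1 neuronal gene of 5, Elavl4. The progenitor, stromal and neuronal lists differed by genotype. Within wildtype 0 of 9 progenitor genes were called (median -0.29), and 2 stromal and 2 neuronal genes were lower (221 of 12393 genes). Within activated kidneys 3 progenitor (median 0.82), 1 stromal and 2 neuronal genes were higher (1.98% of all genes). In these bulk samples more cells of a type and more RNA per cell cannot be told apart, and the part of cell composition in the levels of Fos, Egr1 and the others was not tested.

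The genes most like the 10 were sought by correlation within each run, so the step between the runs did not enter the correlations themselves. It did enter the weights, because each of the 10 genes was standardised over all 12 arrays before averaging. A gene with a large run difference thus counted little within the runs. The SD within groups and over all arrays was 0.16 and 1.12 for Fos, against 0.62 and 0.54 for Ier2. Likeness was the smaller of 2 Pearson correlations with the mean standardised level of the 10 genes, one over the 6 lower-run arrays and one over the 6 higher-run arrays, among 8552 genes brighter than the bacterial control. The nearest were Xbp1 (0.87), Ddit4 (0.87), Tnfrsf21 (0.85), Otulinl (0.83), Pts (0.83), Itfg1 (0.83), Frzb (0.82) and Ift57 (0.81). Their own correlations with the 5' to 3' control ratio ranged from 0.28 to 0.92 among lower-run and from 0.009 to 0.76 among higher-run arrays. The mean standardised level also separated the genotypes in the lower run. It was -0.98 to -0.70 in wildtype and -0.59 to -0.24 in activated kidneys. In the higher run the genotypes overlapped (0.40 to 1.13 and 0.20 to 0.80). Of the nearest genes only Frzb was called between genotypes in the lower run (1.70, limma adjusted p = 0.00769). Its correlation with the mean level there was 0.93. The part of genotype in these correlations was not tested. By the likeness measure the 10 genes themselves had 0.73 for Ier3, 0.71 for Junb and 0.64 for Jun at the top. At the bottom were -0.61 for Fos and -0.62 for Zfp36, although each gene is part of the mean. These values depend on the unequal weights and on 6 arrays per run. They therefore cannot decide whether the 10 genes hold together within the runs.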

How the data were processed

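The authors deposited 1 linear intensity for each probe set on each of the 12 Affymetrix arrays. Per the labels' protocols, RNA was extracted with Trizol; the sources used here do not name the software that summarised the intensities. The 2% trimmed mean of each array lay between 250.099 and 250.126, so the deposited intensities were already scaled. They were converted to log2(intensity + 16) and quantile normalised; the deposited values are not in log2 units. A gene with several probe sets was represented by the one with the highest mean over 12 arrays. Probe sets with several symbols (691), with none listed (1555) or for controls (64) were left out. Differences were tested with limma 3.58.1 in R 4.3.3 (trended moderated variances, two-sided, Benjamini-Hochberg over 12393 genes), with the groups and terms named in the text, and tested on simulated data first. The slope on the 5' to 3' ratio was added after the data were seen. Depth does not apply to arrays; their number, 3 per genotype and run, limits the precision. The lists and genes were chosen with earlier results of these data known. Besides the 10 genes, the rule named the 5 brightest AP-1 genes and 8 brightest other immediate early genes, list genes past the threshold, Apcdd1 and Axin2, and the 8 genes most like the members. Markers of nephron progenitors, ureteric bud, stroma, skeletal muscle and neurons, and Wnt targets, were fitted too. Alternatives changed the scaling, pseudocount, filter, probe sets, variance model, covariates and arrays. Promoter sequences come from RefSeq, build GRCm38.p6. Plots were drawn with matplotlib 3.10.9.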

Additional observations from a re-analysis of the deposited data

How the results depend on the processing

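The genes called between genotypes stayed at 0 of 10 under every alternative tried in the fits over all arrays, with the run as a term, within the higher run and for the interaction. Within the lower run the model that pooled the spread over 4 groups called 1 gene, Ier3. That model also called more of all genes than the 0.597% of the main fit, as given below. Between the runs, with genotype as a term, the count was 4 to 6 when single arrays were left out and 7 with the 5' to 3' ratio as a covariate (Jun at 0.71, limma adjusted p = 0.00417, and Junb at 1.15, adjusted p = 0.0463, were added). In the main fit it was 5 of the 10, against 6.94% of all genes. The share of all genes under these settings is not given here, so the rise to 7 is not read as a result about the 10 genes. Of 13 differences that passed, the direction held in 280 of 280 alternative settings and the call in 263. Another 70 of the 90 differences passed under no setting, and 32 of these changed sign in at least 1.

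The slope on the control ratio called 2 of the 10 genes, against 10.2% of all genes. When the probe sets of each gene were averaged it called 1. With the Y-linked mean as a covariate it called 0, and also 0 without wildtype 2, activated 2 and activated 6. Without single arrays it called 1 to 3, the last without activated 3 (Junb at 0.96, limma adjusted p = 0.0374). Counts over all genes fell with the Y-linked mean, without activated 3 and without the 3 arrays, as given below. The changes are therefore not read as a result about the 10 genes, and their cause was not tested. The slope itself and the setting without those 3 arrays were chosen after seeing the data.

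Counts over all genes moved by over 1.5 times in several fits. With the run as a term 13 genes became 4 to 20 without single arrays, 8 with median centring, 7 without a variance trend and 52 with the ratio as a covariate. Over all arrays 3 became 0 to 1 in the settings that moved it. In the lower run 74 became 30 to 37 without single arrays, 39 without a trend, 46 with the Y-linked mean, 148 with the ratio, 186 with array weights and 188 with pooled spread. In the higher run 1 became 0 to 3. For the interaction 41 became 16 to 27 without single arrays, 18 with median centring, 24 without a trend, 88 with array weights and 89 with the ratio. Between the runs in wildtype 631 became 226 to 399 without wildtype 3, 4, 5 or 6 and 300 without a trend. In activated kidneys 345 became 90 to 217 without single arrays, 196 without a trend, 803 with array weights, 984 with the ratio, 609 with pooled spread and 567 without the 3 arrays. For the slope 1269 became 3059 with median centring, 2291 with every probe set alone, 781 without a trend, 684 with the Y-linked mean, 291 without activated 2, 760 without activated 3 and 0 without the 3 arrays. Median centring also moved the share of higher calls from 51.1% to 19.6% for the slope and from 29.3% to 16.7% for the interaction; it moved the median slope of all genes from -0.07 to -0.15. No paired analysis was possible because the title numbers are unique to each array. Signal near the bacterial controls limits Fosb and Junb, and 3 arrays per genotype and run limit the precision.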
